A study of Homo sapiens with 3 samples.

Results

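The nuclear genes for respiratory complexes II, III, IV and V were examined in a DDX6 eCLIP experiment on MOLM-13, a cell line of human acute myeloid leukaemia. Members were the gene rows of the read tables whose symbols are SDHA to SDHD or CYC1, or begin with UQCR, COX4I, COX5, COX6, COX7, COX8 or ATP5, under the older or the newer symbol. Pseudogenes and antisense genes were left out. This gave 47 genes of 36817 identifiers: 4 for complex II, 10 for complex III, 14 for complex IV, 17 for complex V, and 2 (DMAC2 and DMAC2L) that carry older ATP5 names but are not subunits of ATP synthase. The rule uses symbols and no measured value.

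Complexes II, III and IV pass electrons to oxygen in the inner mitochondrial membrane, and complexes III and IV pump protons as they do so. Complex V, the ATP synthase, makes ATP as the protons flow back. Apart from a few subunits made inside the mitochondrion, the proteins are translated from nuclear mRNAs in the cytosol and then imported. DDX6 is a cytoplasmic RNA helicase that represses translation, promotes decapping of mRNA and is needed for P-bodies, the granules that hold untranslated mRNA.

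In eCLIP, protein is cross-linked to RNA with ultraviolet light, the RNA is trimmed with RNase I, and fragments recovered with an antibody, here a Novus antibody to DDX6, are sequenced beside an input library made without that step. The series has 2 immunoprecipitation (IP) libraries beside 1 input, and no treatment is named in the labels. The labels do not say whether separate cultures were used, so each p-value reflects the spread between libraries only, and that spread may be technical. It was estimated from the 2 IP libraries (1 residual degree of freedom), with the single input taken to have the same spread. edgeR pools this spread over genes. The pooled part weighed 75.8 degrees of freedom in the test of genes below, and had infinite weight in that of gene regions. A p-value from these tests thus rests almost wholly on the shared spread, and says little of how closely a gene's own IP libraries agreed. IP replicate 1 held 4643494 counted reads, IP replicate 2 held 1244213, and the input 7807540. Exonic reads made up 67.6%, 62.6% and 30.7% of these. All 10 markers of the myeloid leukaemia line had reads in every library. Of 7 markers of other cell types, 3 had 0 reads in every library and PECAM1 had no row. HBA1 had 12, 0 and 3 exonic reads in the first IP, the second IP and the input, and ALB had 2, 1 and 1. COL1A1, a fibroblast collagen gene, had 82, 10 and 27 exonic reads, and its part in the results was not tested. DDX6's own mRNA had 1829 and 356 exonic reads in the IPs and 744 in the input, a log2 fold of 0.61 that did not pass the test (adjusted p = 0.0945, edgeR).

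The mRNAs of complexes II to V made up a smaller share of exonic reads in both DDX6 IPs than in the input. Their exonic reads numbered 8590 and 2405 in IP replicates 1 and 2, and 8370 in the input. Of all exonic reads these were 0.274% in the first IP (95% exact binomial interval 0.268 to 0.279), 0.309% in the other (0.297 to 0.321) and 0.349% in the input (0.342 to 0.357). The intervals, which cover counting error only, do not overlap.

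Exonic reads were summed per gene, scaled by TMM (trimmed mean of M-values, which lines up the typical gene of each library) and tested with edgeR's quasi-likelihood test, with a Benjamini-Hochberg adjusted p under 0.05 as the threshold. Of the 47 members, 42 had at least 10 reads in at least 2 libraries and were tested. The other 5 (COX4I2, COX6A1, COX6A2, COX6B2 and COX7B2) had at most 12 exonic reads in any library. In the IP libraries 8 of the 42 (19.0%) were lower than in the input and 0 were higher. Among all 10392 tested genes, 11.4% were lower and 16.7% were higher. At an unadjusted p under 0.05, edgeR gave 14 members lower and 0 higher, and DESeq2 with adjustment gave 1 lower (ATP5F1E) and 0 higher. Among all 10392 genes, DESeq2 gave 256 lower and 679 higher. The members' median log2 fold of IP over input was -0.40, against 0.00 for all tested genes. The fold was below 0 for 37 of 42 members, against 49.9% of all genes, and ranged from -1.53 to 0.58. It was below 0 in both IP replicates for 30 members, above 0 in both for 3 and on opposite sides for 9.

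Under TMM the direction is relative to the typical gene. The exonic share of all reads was higher in the IPs, so scaling to all counted reads shifts exonic folds upward. When libraries were scaled to all counted reads instead, the median of all genes moved to 1.24 and that of the members to 0.84. Of the 42 members 23 were then higher and 0 lower, and of all 10392 genes 6990 were higher and 141 lower. The members' median therefore lay 0.41 below that of all genes under TMM and 0.40 below it under library size. When intronic reads were added to the exonic ones, this order turned: the members' median was 0.22 and that of all genes 0.02, with 10 members higher and 3 lower. The same 42 members were tested, but all genes then numbered 12886, against 10392 with exonic reads alone. Of those 12886 genes, 2531 were higher and 2394 lower. Whether the order also turns over an unchanged set of genes was not tested. The members have few intronic reads, 41.2% of their exonic and intronic reads in the input, against 68.1% over all genes.

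**Figure D1:**
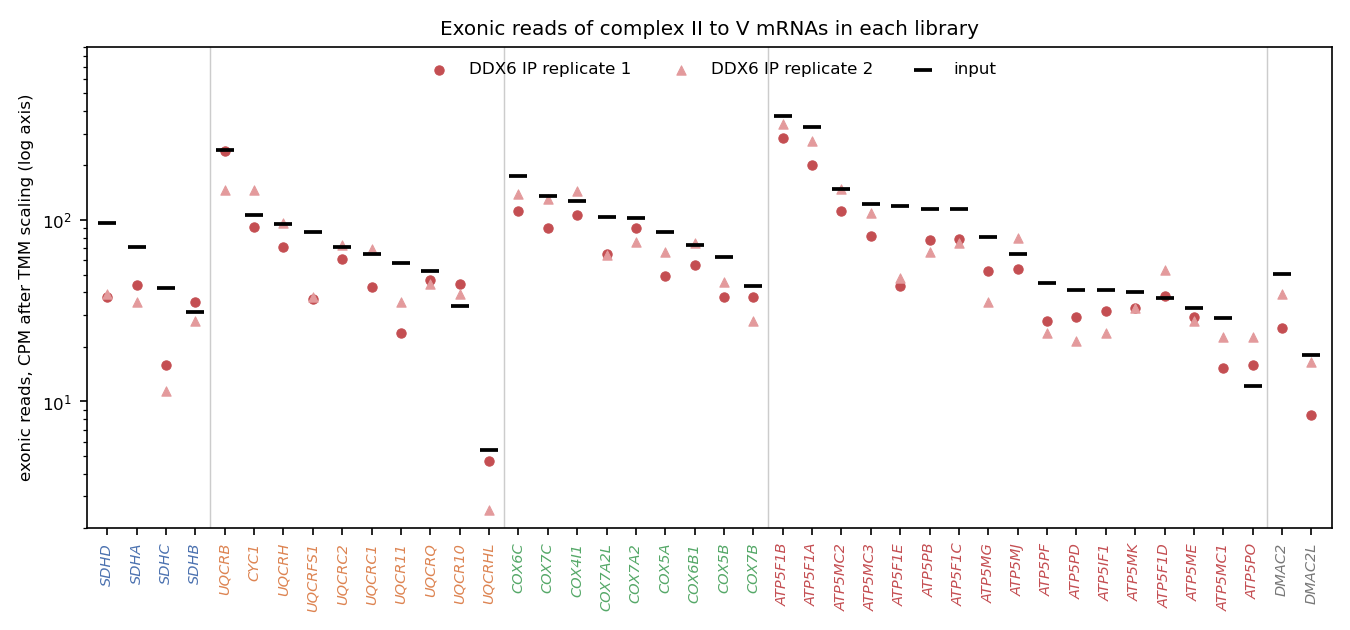
Exonic reads of the 42 tested members in each library, in CPM (reads per 1000000 exonic reads after TMM scaling) on a log axis, grouped by complex and ordered by the input. Circles are IP replicate 1, triangles IP replicate 2 and bars the input; both IP points of SDHD, SDHC, UQCRFS1 and ATP5F1E sit well below their bar, and both of UQCR10 and ATP5PO sit above it. Values are not per length, so they compare libraries and not genes.

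Complex II, succinate dehydrogenase, oxidises succinate in the citric acid cycle and hands the electrons to ubiquinone. Of its 4 mRNAs, 3 were lower in the DDX6 IP, and the median log2 fold was -1.06. SDHC and SDHD encode the membrane anchors of the enzyme. SDHC had 51 and 9 exonic reads in IP replicates 1 and 2 and 93 in the input, which are 15.9, 11.4 and 42.1 CPM. Its log2 fold was -1.53 (SE 0.38, adjusted p = 0.00129, edgeR), the lowest of all 42 members. SDHD had 120, 31 and 212 reads, or 37.5, 39.1 and 95.9 CPM, a mean of 38.3 ± 1.16 CPM in the IPs (SD, n = 2). The log2 fold of SDHD was -1.33 (SE 0.29, adjusted p = 0.000245, edgeR). Both IP values lay far under the input for both anchors.

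Of the catalytic subunits of complex II, SDHA passed the test and SDHB did not, and the difference between them was not tested. SDHA, the flavoprotein that binds succinate, had 141, 28 and 157 reads, or 44.0, 35.3 and 71.0 CPM. With a log2 fold of -0.80 (SE 0.31, adjusted p = 0.0399, edgeR), it also was lower, in both IPs. This call was lost with a minimum of 1 read in 1 library (adjusted p = 0.136, edgeR) or 30 reads in 2 libraries (adjusted p = 0.0505, edgeR). It was also lost with DESeq2 (adjusted p = 0.373). SDHB, the iron-sulphur subunit, had 113, 22 and 69 reads, or 35.3, 27.8 and 31.2 CPM. Its IP values lay on either side of the input, and its log2 fold of 0.06 (SE 0.35, adjusted p = 0.921, edgeR) did not pass the test.

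Complex III takes electrons from ubiquinol to cytochrome c. Of its 10 tested mRNAs, 2 were lower in the IP, and the median log2 fold was -0.26. UQCRFS1 encodes the Rieske iron-sulphur protein of the complex. It had 118, 30 and 190 exonic reads, given here and below in the order of the first IP, the second IP and the input, or 36.9, 37.9 and 85.9 CPM. The IP replicates agreed closely, and the log2 fold was -1.21 (SE 0.30, adjusted p = 0.00114, edgeR). UQCR11, a small accessory subunit, had 76, 28 and 129 reads, or 23.7, 35.3 and 58.4 CPM. This gave a log2 fold of -1.07 (SE 0.34, adjusted p = 0.0107, edgeR).

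The other complex III mRNAs had folds between -0.41 and 0.34 and none passed the test. UQCR10, another small subunit, had the highest log2 fold in the complex, 0.34 (SE 0.34, adjusted p = 0.495, edgeR), from 142, 31 and 74 reads. Its 44.3 and 39.1 CPM in the IPs were both above the 33.5 CPM of the input. CYC1, cytochrome c1, stood at 0.10, and the core proteins UQCRC1 and UQCRC2 at -0.30 and -0.12. The replicates parted at UQCRB, a small subunit next to cytochrome b. It had 769, 116 and 535 reads, so that its log2 fold was -0.01 in the first and -0.72 in the other. Among others, the replicates also parted at UQCRC1 (-0.60 and 0.09) and CYC1 (-0.22 and 0.45). UQCRHL, with 15, 2 and 12 reads, is a near-identical copy of UQCRH, and how reads were split between them is not known.

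Complex IV, cytochrome c oxidase, reduces oxygen to water. All 9 tested mRNAs had a log2 fold below 0, with a median of -0.35, and 1 passed the test. That one was COX7A2L, whose protein is found in respiratory supercomplexes. It had 208, 51 and 231 reads, or 65.0, 64.4 and 104 CPM, and its IP values were nearly equal. Its log2 fold was -0.69 (SE 0.27, adjusted p = 0.0459, edgeR). The highest was COX4I1, a large regulatory subunit, with 343, 114 and 281 reads, or 107, 144 and 127 CPM. Its IP values lay on either side of the input, with a log2 fold of -0.05 (SE 0.26, adjusted p = 0.907, edgeR). The rest ran from -0.62 for COX5B to -0.20 for COX6B1.

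Complex V consists of the catalytic F1 head, the proton-carrying ring of subunit c, and a peripheral stalk that holds them together. Of 17 tested mRNAs, 2 were lower, and the median log2 fold was -0.48. ATP5F1E, the epsilon subunit of the head, had 138, 38 and 266 reads, or 43.1, 48.0 and 120.3 CPM. Its log2 fold of -1.42 (SE 0.28, adjusted p = 4.07e-05, edgeR) had the smallest p of any member. ATP5MG, the membrane subunit g, had 168, 28 and 179 reads, or 52.5, 35.3 and 81.0 CPM. Its log2 fold was -0.81 (SE 0.30, adjusted p = 0.0304, edgeR), with the lower value in IP replicate 2.

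The remaining subunits of the head stood closer to the typical gene than ATP5F1E did, and none passed the test. The alpha subunit ATP5F1A had a log2 fold of -0.48, the beta subunit ATP5F1B -0.29, the gamma subunit ATP5F1C -0.58 and the delta subunit ATP5F1D 0.24. In the peripheral stalk, ATP5PB, ATP5PD and ATP5PF lay between -0.77 and -0.64. ATP5PO, which caps the stalk, had the highest fold of all members, 0.58 (SE 0.49, adjusted p = 0.401, edgeR), from 51, 18 and 27 reads. Both of its IP values, 15.9 and 22.7 CPM, were above the 12.2 CPM of the input, but the reads are few.

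Subunit c of the ring is encoded by 3 genes whose mature proteins are the same and whose mRNAs differ. ATP5MC1 had 49, 18 and 64 exonic reads, with a log2 fold of -0.70 (SE 0.41). ATP5MC2 had 359, 118 and 329 reads and a log2 fold of -0.22 (SE 0.25). ATP5MC3 had 261, 87 and 271 reads and a log2 fold of -0.40 (SE 0.26). None passed the test (edgeR adjusted p from 0.204 to 0.553). Differences between the 3 genes were not tested.

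**Figure D2:**
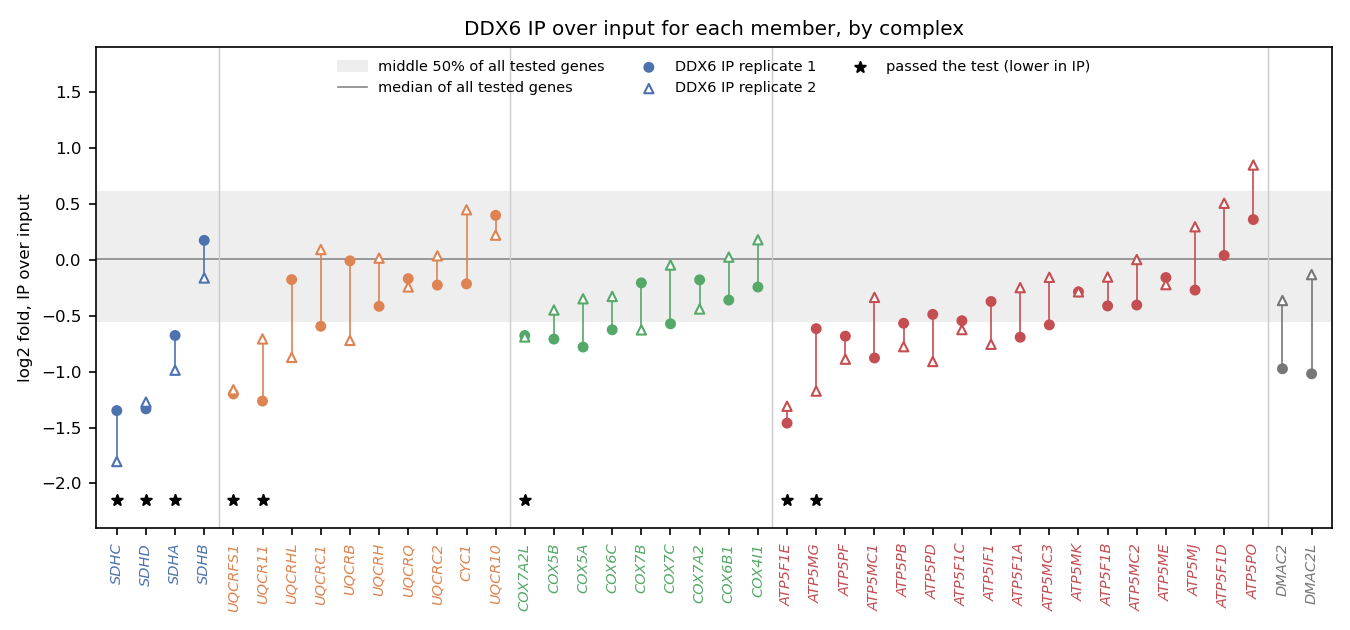
Log2 fold of DDX6 IP over input for each tested member, circles for IP replicate 1 and triangles for IP replicate 2, ordered within each complex. The grey band holds the middle 50% of all tested genes around their median, and stars mark the 8 members that passed the test; all 8 lie under the band in both replicates.

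Other gene groups of the same pathway are given for comparison, and no difference between groups was tested. Of 33 tested nuclear mRNAs of complex I, the NADH dehydrogenase, 2 (6.06%) were lower and 0 higher, with a median log2 fold of -0.45. They were NDUFA1 (-1.35) and NDUFA10 (-0.82). Of 38 tested assembly factors of complexes II to V, 8 (21.1%) were lower and 0 higher, with a median of -0.34. The copper-delivery factors COX11 and COX19, at -1.62 and -1.35, had the smallest p among them. The electron carrier cytochrome c, CYCS, had a log2 fold of -0.48, and NDUFA4, a subunit now placed in complex IV, one of -0.27, and neither passed the test. At an unadjusted p under 0.05, edgeR gave 7 complex I mRNAs and 10 assembly factors lower and 0 higher.

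The mitochondrially encoded partners are mRNAs made and translated inside the mitochondrion. Of 6 such mRNAs for complexes III to V, 2 were lower and 0 higher (the same counts at an unadjusted p under 0.05), and the median log2 fold was -0.42. The lowest were the ATP synthase mRNAs. MT-ATP8 had 298, 44 and 647 reads and a log2 fold of -1.90 (adjusted p = 3.67e-09, edgeR). MT-ATP6 had 1549, 284 and 1789 reads and a log2 fold of -0.93 (adjusted p = 0.00677, edgeR). MT-ATP8 and MT-ATP6 overlap on the same strand, so how their reads were divided is uncertain.

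The reads were then separated by transcript region. In the IPs the members' exonic reads lay mostly in coding sequence: 72.2% in IP replicate 1 (95% exact interval 71.3 to 73.2) and 71.3% in IP replicate 2 (69.4 to 73.1), against 61.4% in the input. Over all genes the coding share was 57.1%, 58.8% and 45.9%. The 3'UTR held 21.0% and 20.5% of the members' exonic reads in the IPs and 33.1% in the input. A larger part of the members' reads was thus coding in both IPs than in the input, and a smaller part 3'UTR. Over all genes the 3'UTR share was 37.1%, 33.9% and 47.1%.

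Each region of each gene was tested in a fit of 28825 gene regions, scaled by TMM over exonic and intronic rows together. In coding sequence 5 of 41 tested members were higher in the IP and 0 lower, against 51.2% higher and 0.208% lower among all tested coding rows. The members' median log2 fold there was 0.41, against 1.02 for all genes. The 5 were UQCR10 (1.30), ATP5PO (1.18), ATP5MK (1.15), UQCRH (0.86) and CYC1 (0.79). UQCR10 had 66 and 13 coding reads in the IPs and 26 in the input (SE 0.49, adjusted p = 0.0167, edgeR). CYC1 had 241, 102 and 190 (SE 0.34, adjusted p = 0.0359, edgeR). At an unadjusted p under 0.05, edgeR gave 8 coding rows higher and 0 lower. DESeq2 gave 0 in either direction, against 2195 higher and 2 lower among all 8169 coding rows.

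In the 3'UTR the calls went the other way. Of 36 tested, 10 were lower in the IP and 0 higher, against 6.83% lower and 23.9% higher among all tested 3'UTR rows, and the median log2 fold was -0.52, against 0.28. At an unadjusted p under 0.05, edgeR gave 12 lower and 0 higher, and DESeq2 gave 0 in either direction. Among all 7194 3'UTR rows, DESeq2 gave 68 lower and 757 higher. The 10 that were lower with edgeR included SDHA, SDHC and SDHD, all 3 complex II mRNAs with a tested 3'UTR. In complex IV they were COX7B (-1.74), COX5A (-1.63) and COX6C (-1.06), and in complex V ATP5F1E (-1.64), ATP5PB (-1.44), ATP5F1A (-1.43) and ATP5MG (-1.19). None was from complex III, where the 8 tested 3'UTRs ran from -0.62 to 0.66.

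These region folds also depend on the scaling, since introns fill much of the input. With TMM over exonic rows only, 5 of the 41 coding rows of members were lower and 0 higher. Of the 36 3'UTR rows, 21 were lower and 0 higher. Among all 8169 coding rows 272 were lower and 1694 higher, and among all 7194 3'UTR rows 1833 were lower and 561 higher. The members' medians were -0.33 in coding sequence and -1.26 in the 3'UTR. The members' coding median was below the all-gene median by 0.61 in the first scaling and by 0.62 in the other.

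In the 5'UTR, where 10 members had enough reads, 2 were higher and 0 lower (33.2% higher and 4.49% lower among all tested 5'UTR rows). COX6B1, an intermembrane-space subunit of complex IV, had 24, 12 and 11 reads in its 5'UTR and a log2 fold of 1.60 (SE 0.69, adjusted p = 0.0376, edgeR). ATP5MJ, a small ATP synthase membrane subunit, had 48, 22 and 25 reads and a log2 fold of 1.38 (SE 0.50, adjusted p = 0.0127, edgeR). In both mRNAs IP replicate 2 had the larger fold, 1.92 and 1.75, against 1.04 and 0.96 in IP replicate 1. At an unadjusted p under 0.05 there were 3 higher and 0 lower, and DESeq2 gave 0 in either direction. Among all 2025 5'UTR rows, DESeq2 gave 256 higher and 8 lower.

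**Figure D3:**
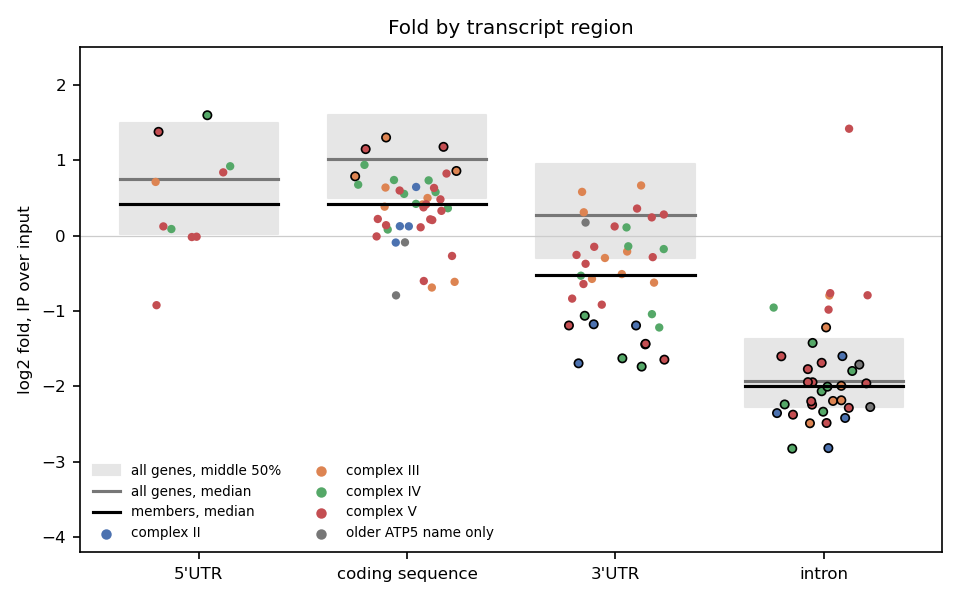
Log2 fold of IP over input by transcript region for the tested members, coloured by complex, with black rims for those that passed the test. Grey bars hold the middle 50% of all tested rows of that region and the black lines are the members' medians, which lie below the medians of all genes in the 5'UTR, the coding sequence and the 3'UTR and near it in introns.

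The contrast between coding sequence and 3'UTR within an mRNA does not depend on how libraries are scaled, because both regions come from the same library. It was tested as the coding log2 fold minus the 3'UTR log2 fold, with the library as a block. Of 36 members with both regions tested, the coding fold was above the 3'UTR fold in 13 and below it in 0. Among 6552 genes, 29.7% passed above and 0.717% below. The members' median difference was 0.90, against 0.82 for all genes, and the difference was above 0 in 86.1% of members and 86.8% of all genes. At an unadjusted p under 0.05, edgeR gave 20 above and 0 below, and DESeq2 with adjustment gave 1 above (ATP5F1A) and 0 below. Among all 6552 genes, DESeq2 gave 204 above and 6 below.

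By complex, the difference passed the test in 2 of 3 mRNAs of complex II, 2 of 8 of complex III, 6 of 9 of complex IV and 3 of 15 of complex V. The medians were 1.31, 0.54, 1.55 and 0.86. Whether the complexes differ was not tested. For comparison, 10 of 22 complex I mRNAs passed, with a median of 1.20, and 3 of 23 assembly factors, with a median of 0.64.

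COX7B, a small membrane subunit of complex IV, had the largest difference. Its coding sequence had 80, 14 and 47 reads, and its 3'UTR 11, 3 and 40. The 3'UTR thus held nearly as many reads as the coding sequence in the input, and far fewer in both IPs. The difference was 2.46 (SE 0.67, adjusted p = 0.00243, edgeR), from 2.34 in IP replicate 1 and 1.75 in IP replicate 2. COX6B1 followed in complex IV at 1.77, with 132, 38 and 88 coding reads against 26, 9 and 63 in the 3'UTR. COX5A, COX6C and COX5B, which surround the catalytic core, stood at 1.62, 1.61 and 1.55. COX6C is the best covered of these, with 225, 69 and 176 coding reads and 68, 24 and 171 in the 3'UTR (adjusted p = 0.000225, edgeR). COX7A2L, which was lower in its summed exonic reads, had a difference of 1.44.

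In complex V the peripheral stalk subunit ATP5PB had 198, 43 and 141 coding reads and 45, 7 and 114 in the 3'UTR, a difference of 1.94 (SE 0.43, adjusted p = 0.000126, edgeR). ATP5F1A had 579, 197 and 545 coding reads and 46, 12 and 133 in the 3'UTR, a difference of 1.73 (SE 0.36, adjusted p = 3.95e-05, edgeR). ATP5MG stood at 1.44. The beta subunit ATP5F1B, with 797, 233 and 717 coding reads, had 108, 35 and 116 in the 3'UTR and a difference of 0.20 that did not pass. The catalytic partners alpha and beta thus gave different values for the same contrast, and the gap between them was not tested.

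In complex II the coding sequence of SDHD had 47, 13 and 47 reads and its 3'UTR 67, 17 and 162, so most input reads were in the 3'UTR. Its coding log2 fold was 0.12 and its 3'UTR log2 fold -1.19, a difference of 1.31 (SE 0.48, adjusted p = 0.026, edgeR). SDHA stood close to it, with a coding log2 fold of 0.12, a 3'UTR log2 fold of -1.18 and a difference of 1.31. SDHC, at 1.61, did not pass (adjusted p = 0.071, edgeR). The coding folds of all 3 were near 0 on the region scale, between -0.09 and 0.12, and their 3'UTR folds were all below -1.

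In complex III, UQCRH (1.35) and UQCRC2 (1.27) passed. UQCRFS1 did not follow this course. Its coding sequence had 93, 23 and 157 reads and its 3'UTR 25, 6 and 32, so that the coding log2 fold of -0.69 was lower than the 3'UTR log2 fold of -0.30. UQCR11 had similar coding and 3'UTR folds of -0.61 and -0.51. UQCRQ and DMAC2, with ATP5MJ, were the remaining members with a difference below 0, and none of the 5 passed the test.

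**Figure D4:**
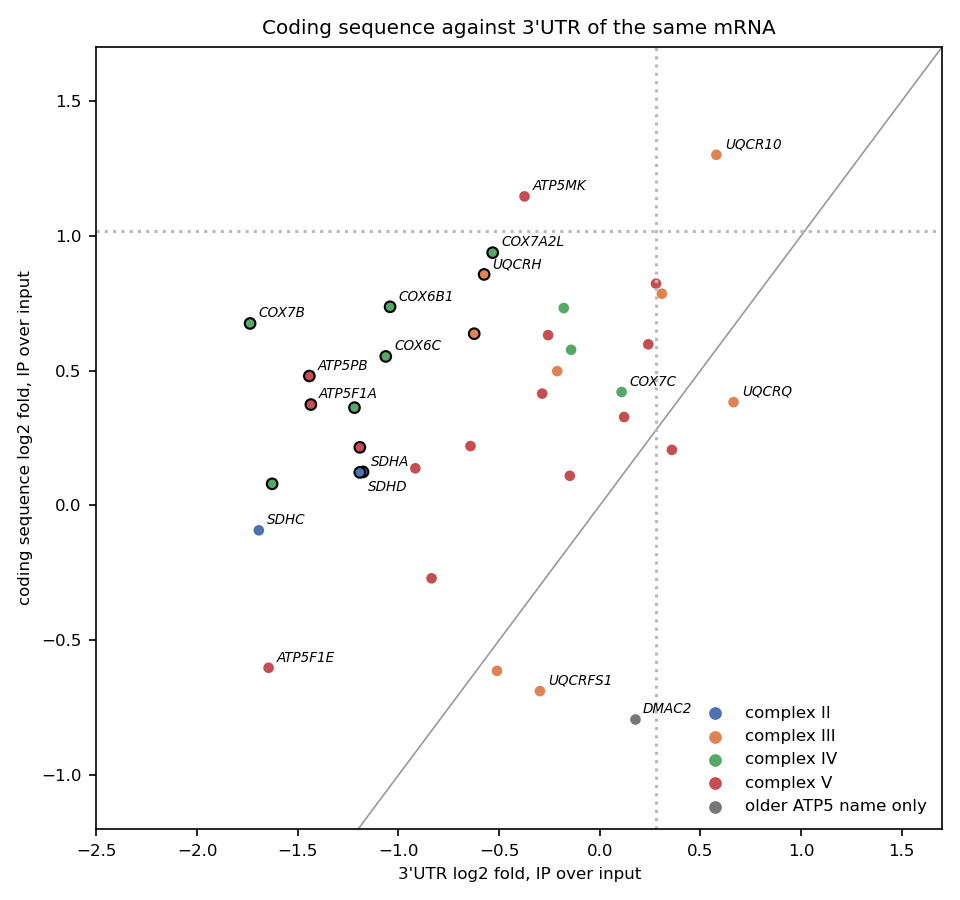
Coding log2 fold against 3'UTR log2 fold of the same mRNA, 1 point per member with both regions tested. The diagonal marks equal folds, dotted lines the medians of all genes, and black rims the 13 members whose difference passed the test; 31 of 36 points lie above the diagonal, and UQCRFS1 and DMAC2 lie low and to the right of it.

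Intronic reads come from transcripts or pieces not yet spliced out, which are mostly nuclear. They made up 13.1% and 14.3% of the members' exonic and intronic reads in the IPs and 41.2% in the input. Over all genes the intronic share also was lower in the IPs, at 27.6% and 31.3%, against 68.1% in the input. Of 35 tested member introns, 29 were lower in the IP and 0 higher, against 83.0% lower and 2.57% higher among all tested introns, with medians of -1.99 and -1.93. DESeq2 gave 21 lower and 0 higher, against 5394 lower and 81 higher among all 9153 introns. The range of the 29 began at COX5A (23, 2 and 143 reads, log2 fold -2.82) and SDHD (29, 10 and 240 reads, also -2.82).

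A single member had an intronic fold above 0. ATP5IF1, the inhibitor protein that blocks ATP hydrolysis by complex V, had 20, 15 and 13 intronic reads and a log2 fold of 1.42 (SE 0.67, adjusted p = 0.0584, edgeR), past an unadjusted 0.05 only. It was 0.61 in IP replicate 1 and 2.03 in IP replicate 2. The authors' deposited peak lists place a distal intronic peak of ATP5IF1 there in both replicates, at chr1:28567535-28567571 (hg19) in IP replicate 1 and chr1:28567533-28567572 in IP replicate 2. Its log2 fold was 1.48 in the first and 3.45 in the other. The authors' -log10 p was below 3 in IP replicate 1 and above 3 in IP replicate 2. Exonic reads of ATP5IF1 were 101, 19 and 91, with a log2 fold of -0.51.

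The authors' deposited peak lists give each peak a -log10 p and a log2 fold of IP over input, on the authors' own scaling, so these folds cannot be set against those above. Peaks on members numbered 367 in IP replicate 1 and 237 in IP replicate 2, with those of COX8A, ATP5MF and ATP5MF-PTCD1, which have peaks but no row in the read tables. Coding sequence held 80.9% and 80.2% of them, against 54.6% and 58.1% of all peaks, and the 3'UTR held 11.4% and 11.8%, against 20.5% and 20.8%. The median log2 fold of coding peaks was 1.18 and 1.27 for members and 2.01 and 2.32 for all genes.

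Few of these peaks were strong. With a -log10 p of at least 3 and a log2 fold of at least 3, 2 member peaks passed in IP replicate 1 and 3 in IP replicate 2, or 0.545% and 1.27% of the members' peaks. Among all peaks 11.5% and 12.9% passed. In IP replicate 1 they were coding peaks of ATP5MC1 (chr17:46970769-46970795, log2 fold 3.47) and UQCR10 (chr22:30163477-30163515, 3.05). In IP replicate 2 they were the intronic peak of ATP5IF1 and a pair of adjoining peaks of COX4I1 annotated by the authors as 3'UTR (chr16:85839900-85839903 and chr16:85839904-85839920, both 3.64). None of these 5 peaks overlapped between replicates, where 22.1% of all passing peaks of the first IP and 33.6% of the second did. Over the ATP5MC1 peak, IP replicate 2 had peaks with log2 folds of 1.53 and 1.88 in the authors' lists, both with a -log10 p below 3. None of the authors' 1587 reproducible peaks overlapped a member peak. Of all peaks, 1.39% in the first IP and 2.20% in the second overlapped one.

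At a looser log2 fold of at least 1, the first IP had 132 passing peaks and the second 64. These were 36.0% and 27.0% of the members' peaks, near the 34.3% and 23.9% of all peaks. Of the 132, 69 (52.3%) overlapped one of the 64, on 24 genes, and of the 64, 48 overlapped one of the 132. Over all passing peaks these shares were 25.9% and 60.0%. Coding peaks made up 120 of the 132 (90.9%) and 55 of the 64 (85.9%), against 70.5% and 68.0% of all passing peaks. ATP5MC2 had 8 such peaks of the first IP overlapping one of the second, ATP5MC3 and COX4I1 6 each, and UQCRH, ATP5F1A and ATP5MJ 5 each. The second IP had 5 passing peaks on ATP5MC2, 3 on ATP5MC3, 7 on COX4I1, 4 on UQCRH, 6 on ATP5F1A and 3 on ATP5MJ. Several peaks of the first IP can meet the same peak of the second, so these are not counts of separate sites. Of the 8 members lower in exonic reads, SDHA, SDHC, SDHD, UQCRFS1, UQCR11 and ATP5F1E had 0 peaks past the looser threshold in either library. COX7A2L had 3 in the first IP and 1 in the second, and ATP5MG had 1 and 0. The members ATP5PF, UQCRHL and DMAC2L, which were tested and not called lower, also had 0 in both. So had COX6A1 and ATP5MF-PTCD1, which were not tested. The peak folds and the exonic folds come from the same libraries, so these peak counts are not separate support for the calls. UQCRB had the smallest p of all member peaks, a coding peak in IP replicate 1 with a -log10 p of 32.7 and a log2 fold of 1.64. It had 9 peaks past the looser threshold there and 1 in IP replicate 2. The shallower IP replicate 2 also had fewer such peaks over all members, 64 against 132.

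**Figure D5:**
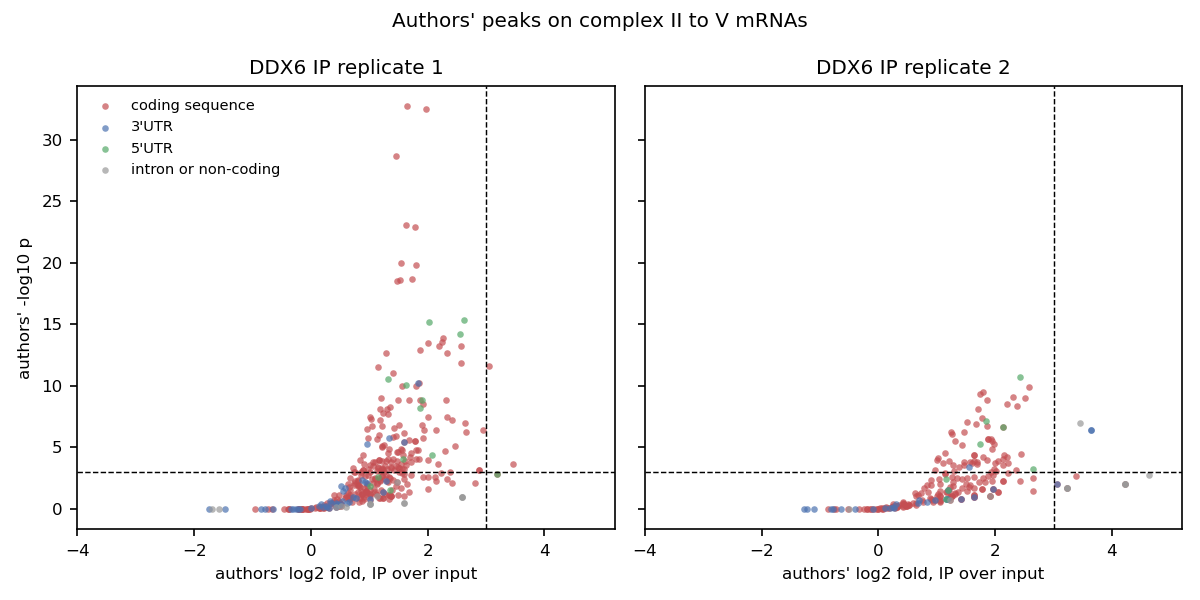
The authors' peaks on members, log2 fold of IP over input against -log10 p, in IP replicate 1 (367 peaks) and IP replicate 2 (237 peaks), coloured by region. Dashed lines are the thresholds of 3 on both axes; most coding peaks lie between 0 and 3 on the fold axis, and 2 and 3 peaks lie past both lines.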

How the data were processed

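For each library the authors deposited raw counts of reads by gene and region, and for each IP a list of peaks with a -log10 p and a log2 fold per peak. The submitters' processing notes name STAR, SAMtools, cutadapt and UMI-tools and the build hg19. Not given in the sources used here are versions, caller, counter, annotation and the treatment of strand, overlapping genes and multi-mapping reads. Reads of overlapping genes, near-identical copies and antisense partners may therefore be shared or lost. Of 29754 Ensembl identifiers, 28576 matched the symbol table. The 26 pseudogene rows left out held 33, 18 and 23 exonic reads.

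Exonic counts (coding sequence, UTRs and non-coding exon) per gene, counts per gene region, and the coding minus 3'UTR contrast were tested over the whole tables with edgeR 4.0.16 (TMM, quasi-likelihood test, Benjamini-Hochberg adjustment, at least 10 reads in at least 2 libraries). Rows of totals and intergenic reads were left out. A prior count of 2 was used for folds of single replicates. In the gene fit the coefficient of variation was 16.5%. DESeq2 1.42.0, other filters, scalings and read sums, and each IP left out were tried as alternatives. The scripts were tested on simulated data. Intervals are exact Clopper-Pearson. Peaks overlapped by at least 1 base on the same strand.

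Members and lists were chosen with earlier results of these data known. Named were members called in the gene fit, the highest and lowest of each complex, the SDH and subunit c genes, and the 10 with the smallest p for coding against 3'UTR. The remaining names were chosen after their values were seen.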

Additional observations from a re-analysis of the deposited data

How the results depend on the processing

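Whether members counted as lower or higher depended on the scaling; the contrast within an mRNA did not use it. For exonic reads, the main counts of 8 lower and 0 higher became 0 and 23 with library size, 1 lower with DESeq2, 5 lower with a minimum of 1 read, and 3 lower and 10 higher with introns. With a minimum of 1 read 45 members were tested, and of all 26782 genes 960 were lower and 1316 higher. SDHA, COX7A2L and ATP5MG were the members lost with a minimum of 1 read, and SDHA and ATP5MG those lost at 30 reads. Of the 8, only SDHC and SDHD stayed lower with introns. The median of -0.40 became 0.84, 0.22 with introns and -0.56 with coding and 3'UTR reads, and ran from -0.52 to -0.39 without 1 IP. Counts over all genes stand in brackets in what follows. Library size: coding 27 higher (6422 of 8169), median 1.05. The 3'UTR had 3 higher and 1 lower (3327 and 75 of 7194), median 0.12. Introns had 1 higher (354 of 9153), median -1.35, and 5'UTRs 5 higher (1085 of 2025). DESeq2: coding 0 higher, 3'UTR 0 lower, 5'UTR 0 higher; coding above 3'UTR in 1, median 0.87. At least 30 reads in 2 libraries: coding 12 of 35 higher (3589 of 5213), median 0.61. The 3'UTR had 6 of 24 lower (246 of 4645), median -0.0756. Introns had 14 of 15 lower (5616 of 6197), and the coding minus 3'UTR median was 0.87. TMM over exonic rows: coding 0 higher and 5 lower (1694 and 272 of 8169), median -0.33. The 3'UTR had 21 lower (1833 of 7194), median -1.26. The intron median was -2.74, and 5'UTRs had 0 higher (317 of 2025). Without 1 IP the medians ran from 0.36 to 0.41 (coding), -0.46 to -0.45 (3'UTR), -2.01 to -1.69 (intron) and 0.90 to 0.94 (coding minus 3'UTR). Peaks past both thresholds went from 2 and 3 to 132 and 64 at a log2 fold of 1, with 69 overlapping in place of 0, and to 1 in IP replicate 1 at a -log10 p of 5. Causes were not tested beyond what each setting's construction gives.

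Exonic log2 folds that changed sign with library size were ATP5MC1 0.54, ATP5MC2 1.01, ATP5MC3 0.84, ATP5MG 0.43, COX4I1 1.18, COX7A2L 0.55, SDHA 0.44, UQCR11 0.17 and UQCRFS1 0.0344, and with introns ATP5MC2 0.43, ATP5MC3 0.72, COX4I1 0.65 and SDHB -0.18. SDHB was -0.0214 at 30 reads, -0.0025 with coding and 3'UTR reads and ran from -0.22 to 0.17 without 1 IP, and COX4I1 from -0.25 to 0.12. No paired analysis was possible because the single input carries no number shared by both IPs. IP replicate 2 is the shallowest library, with a median of 37.0 exonic reads per tested member, so small differences were not detectable there.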

Other observations

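The tissue-restricted forms of complex IV subunits gave almost no reads in this leukaemia line. COX4I2, COX6A2, COX6B2 and COX7B2, known mainly from lung, muscle or testis, had at most 2 exonic reads in any library and were not tested. Their partners with wide expression, COX4I1, COX6B1 and COX7B, had 281, 162 and 96 exonic reads in the input. COX6A1, the widely expressed partner of COX6A2, had only 12, 3 and 5 exonic reads in the 2 IPs and the input, and its authors' peaks are assigned to another identifier as well.

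The 6 further symbols that the naming rule covers, among them COX8A and ATP5MF, have no row in the tables used here. The authors' deposited peak lists do hold peaks for both. Coding peaks assigned to ATP5MF alone, which encodes the f subunit of the ATP synthase membrane part, had log2 folds from 1.51 to 2.33 in IP replicate 1 and from 1.86 to 2.44 in IP replicate 2. Coding peaks of COX8A, a small complex IV subunit, had 0.48 to 1.05 in IP replicate 1 and 0.68 to 1.10 in IP replicate 2. All were below the log2 fold of 3 used as the threshold above.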
